A study of Rattus norvegicus with 23 samples.

Results

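The mitosis genes examined here were 44 rat genes whose products carry a cell through mitosis, and the level of each was read in the livers of 23 rats. A member was taken only from probe sets annotated to that gene alone, and where several such probe sets existed the one with the highest mean over the 23 samples stood for the gene. By this rule 37 of the 44 genes were measured, out of 14217 genes measured in all. Anln and Ckap2 were represented only on probe sets shared with another gene, and Kif4a, Tpx2, Ncapg, Ndc80 and Nek2 were not analysed here.

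Mitosis is driven by CDK1 bound to A-type and B-type cyclins, whose transcripts accumulate in the G2 phase and are lost after division. Aurora and Polo-like kinases, kinesin motors and kinetochore proteins then build the spindle and attach the chromosomes to it, the anaphase-promoting complex releases the sister chromatids, and the central spindle proteins complete cytokinesis. In the adult rat liver hepatocytes and bile duct cells are largely quiescent, so these transcripts are scarce unless cells are pushed to divide, as after resection or toxic injury.

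Livers came from male Sprague Dawley rats of 6 to 8 weeks that were gavaged once daily for 5 days and killed 24 h after the last dose, and RNA from the left lateral lobe was hybridised to Affymetrix Rat Genome 230 2.0 arrays. ANIT (alpha-naphthylisothiocyanate, 100 mg/kg, n = 3) was compared with corn oil at 5 ml/kg (n = 3), and MDA (methylenedianiline, 100 mg/kg, n = 3) with 35% ethanol at 2 ml/kg (n = 3). APAP (acetaminophen, 1000 mg/kg, n = 3) was compared with corn oil at 2 ml/kg (n = 3), and DCLF (diclofenac, 10 mg/kg, n = 3) with water at 10 ml/kg (n = 2). ANIT and MDA are classical bile duct toxicants, APAP is a hepatocyte toxicant at overdose, and DCLF is an anti-inflammatory drug associated with idiosyncratic liver injury. The question addressed was which mitosis genes differed between each compound and the vehicle given in its own study. All animals were intact wild-type rats, each array held 1 liver, and values are log2 intensities.

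Sample medians lay between 8.95 and 9.03 log2 units and the correlation of arrays within a group between 0.987 and 0.995. In 3 arrays of the ANIT study the brightest end of the scale was lower: the highest value was 14.57 in corn oil replicate 2, 14.58 in ANIT replicate 1 and 14.97 in ANIT replicate 2, against 15.86 to 15.99 in the other 20 arrays. Because the brightest value of any mitosis gene was 11.83, these genes lay well below that end, and the ANIT counts are also given without those arrays. All 13 measured hepatocyte genes, Alb among them, lay above the dimmest 25% of probe sets. So did all 14 measured lymphocyte and all 9 measured endothelial markers, so this does not test the liver label.

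The log2 levels of the 37 genes were averaged within each liver. Corn oil rats at 5 ml/kg gave means of 8.30, 8.26 and 8.22, and ANIT rats 9.59, 10.23 and 9.53. The ethanol rats gave 8.57, 8.63 and 8.51, and the MDA rats 8.73, 9.45 and 9.43. Every ANIT and MDA liver therefore lay above its own vehicle, with ANIT replicate 2 the highest and MDA replicate 1 close to the ethanol rats. Corn oil rats at 2 ml/kg (8.28, 8.27 and 8.30) and APAP rats (8.33, 8.28 and 8.28) overlapped, as did the water rats (8.26 and 8.25) and DCLF rats (8.34, 8.25 and 8.26).

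**Figure D1:**
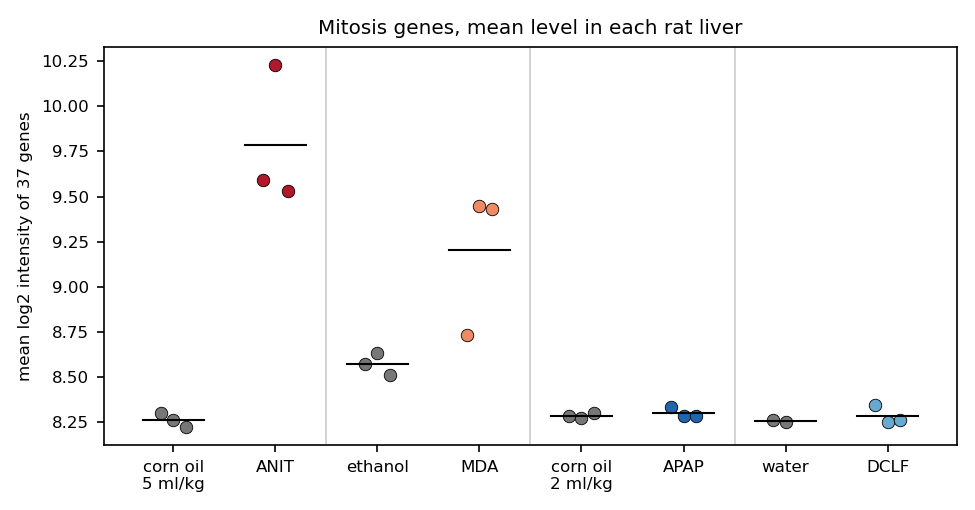
Mean log2 intensity of the 37 measured mitosis genes (vertical axis) in each rat liver (points), by group (horizontal axis), with the group mean as a bar and each vehicle to the left of its compound. ANIT livers lie between 9.53 and 10.23 against 8.22 to 8.30 in corn oil, MDA replicate 1 lies at 8.73 below the other MDA livers, and the ethanol livers lie above the remaining vehicles.

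The start-site sequences of these genes were read because the genes moved together. Genes of late cell cycle phases are known to carry CCAAT boxes, bound by NF-Y, and a cell cycle genes homology region (CHR), bound by the DREAM repressor and by the B-Myb and FOXM1 activating complexes. RefSeq windows (build GRCr8) from 250 bases before to 50 bases after the annotated start were available for 31 of the 37 measured members, and 1 window per gene for 19005 protein-coding genes served as the comparison. For the CCAAT box the letters CCAAT were searched on both strands. For the CHR the letters TTTGAA were searched on both strands. Its variant TTCGAA reads the same on either strand and was counted as a CHR match too. The CCAAT letters were present in 25 of 31 member windows (80.6%) and in 38.4% of all windows, the CHR letters in 22 (71.0%) and 18.5%, and both together in 20 (64.5%) and 7.63%.

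The windows of 6 members are printed to show this arrangement, 5 of them holding both motifs and 1, Bub1, holding neither. Motif letters are in capitals. The Cdk1 window was at chr20:19265043-19265342 (+ strand), Mki67 at chr1:199952544-199952843 (- strand), Top2a at chr10:84473044-84473343 (- strand), Ect2 at chr2:111966577-111966876 (- strand), Cks2 at chr17:13727470-13727769 (- strand) and Bub1 at chr3:135504872-135505171 (- strand).
Cdk1: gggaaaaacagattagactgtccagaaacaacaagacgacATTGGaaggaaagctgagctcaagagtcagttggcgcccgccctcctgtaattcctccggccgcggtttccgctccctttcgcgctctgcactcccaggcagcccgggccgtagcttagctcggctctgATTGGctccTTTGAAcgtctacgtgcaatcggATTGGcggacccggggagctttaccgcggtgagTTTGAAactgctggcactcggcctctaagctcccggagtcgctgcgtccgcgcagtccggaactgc
Mki67: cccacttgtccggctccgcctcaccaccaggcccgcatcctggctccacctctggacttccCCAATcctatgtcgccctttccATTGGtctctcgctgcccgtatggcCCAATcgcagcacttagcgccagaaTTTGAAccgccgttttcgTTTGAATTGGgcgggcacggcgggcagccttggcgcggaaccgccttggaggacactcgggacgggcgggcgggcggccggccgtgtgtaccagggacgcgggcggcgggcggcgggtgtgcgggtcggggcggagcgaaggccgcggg
Top2a: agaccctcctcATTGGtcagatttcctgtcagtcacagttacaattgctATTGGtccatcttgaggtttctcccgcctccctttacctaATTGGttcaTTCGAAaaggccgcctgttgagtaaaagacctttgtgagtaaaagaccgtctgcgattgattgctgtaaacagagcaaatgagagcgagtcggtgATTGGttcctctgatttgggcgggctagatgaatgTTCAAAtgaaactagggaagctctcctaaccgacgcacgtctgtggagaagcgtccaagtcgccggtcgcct
Ect2: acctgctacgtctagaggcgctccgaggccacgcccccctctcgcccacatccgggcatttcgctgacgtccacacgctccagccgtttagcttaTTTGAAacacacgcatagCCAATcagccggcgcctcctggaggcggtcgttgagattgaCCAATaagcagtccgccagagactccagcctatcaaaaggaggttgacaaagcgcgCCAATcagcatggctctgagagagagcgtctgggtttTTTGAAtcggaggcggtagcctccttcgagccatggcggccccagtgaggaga
Cks2: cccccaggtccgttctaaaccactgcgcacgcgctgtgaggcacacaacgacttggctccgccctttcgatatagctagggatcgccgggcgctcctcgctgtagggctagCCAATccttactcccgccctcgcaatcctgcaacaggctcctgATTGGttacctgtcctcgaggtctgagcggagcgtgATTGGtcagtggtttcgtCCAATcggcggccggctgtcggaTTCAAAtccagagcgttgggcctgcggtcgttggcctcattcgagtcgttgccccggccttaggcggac
Bub1: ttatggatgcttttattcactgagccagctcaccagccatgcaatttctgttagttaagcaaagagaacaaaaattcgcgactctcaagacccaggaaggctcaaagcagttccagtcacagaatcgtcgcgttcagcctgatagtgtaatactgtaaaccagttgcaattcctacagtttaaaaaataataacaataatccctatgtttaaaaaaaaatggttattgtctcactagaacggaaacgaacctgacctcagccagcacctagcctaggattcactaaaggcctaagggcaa

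Over the 31 windows the 61 CCAAT matches began at a median of 96 bases before the start and the 30 CHR matches at a median of 32.5 bases before it. In Mki67 and in Cdca8 a CHR match and a CCAAT match shared 1 base. Aurka, Bub1, Kif2c and Melk had neither motif in these windows. The 20 members with both motifs had a median log2 change of 1.59 under ANIT (range 0.13 to 3.21, 18 called) and the 11 others 0.90 (0.53 to 2.15, 9 called), while under MDA the medians were 0.52 in both sets. Split by the CHR alone, the ANIT medians were 1.518 in the 22 members with it and 1.405 in the 9 without. Split by the CCAAT box alone, they were 1.498 in the 25 with it and 0.846 in the 6 without. These figures are descriptive: the sets overlapped in range, and Bub1, with no match, changed by more than most members that had both.

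**Figure D2:**
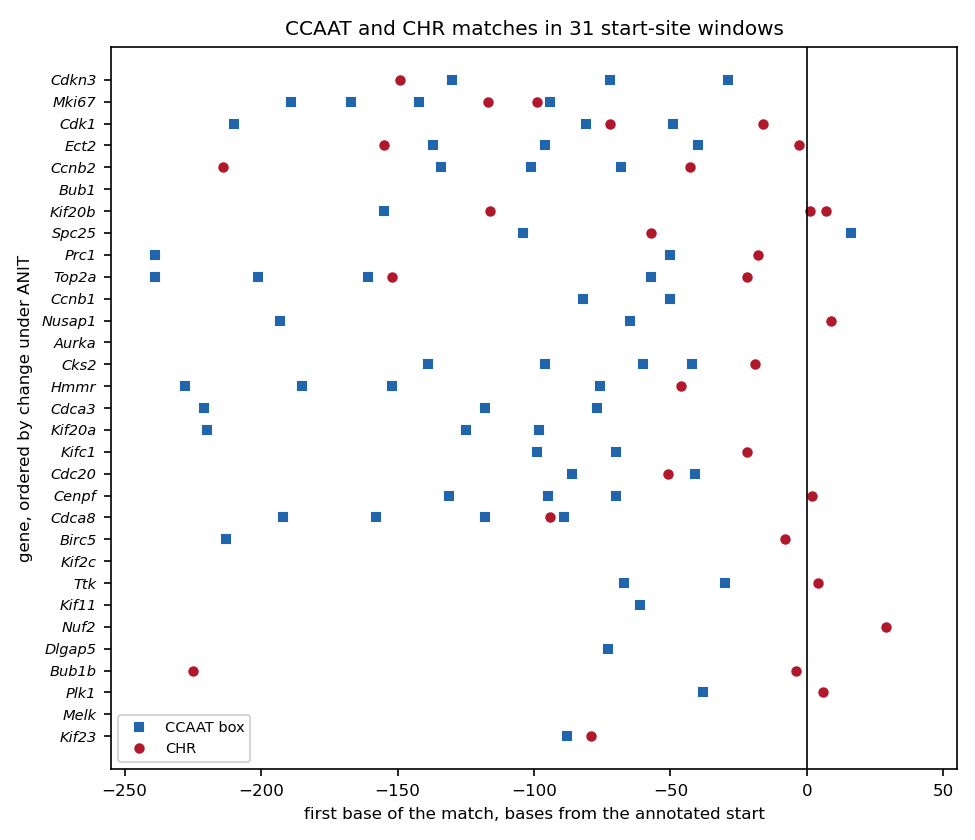
Position of each CCAAT (squares) and CHR (circles) match, as its first base in bases from the annotated start (horizontal axis), for the 31 mitosis genes with a start-site window (vertical axis), ordered from the largest change under ANIT at the top. CHR matches gather near the start and CCAAT matches lie further upstream, and Bub1, Aurka, Kif2c and Melk have neither.

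ANIT raised most of the mitosis genes. A gene was called when its limma p-value, adjusted over 31042 probe sets by Benjamini-Hochberg, was below 0.05 and its fold change exceeded 1.5. In counts of genes, rose and fell mean called higher and called lower. Of the 37 genes 32 were called higher and 0 lower, against 3.84% of all 14217 genes called higher, and the median log2 change was 1.41 (2.65-fold) against -0.02 over all genes. The called changes ranged from 1.52-fold for Bub1b to 9.28-fold for Cdkn3. With limma at an unadjusted p below 0.05, 36 of the 37 genes were higher and 0 lower; the share of all genes at this cut was not computed for ANIT. In 36 of the 37 genes all 3 ANIT livers exceeded all 3 corn oil livers, a pattern found in 14.1% of all genes.

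Of the called genes, 25 were called whichever single liver was left out. Cdc20, Aurka, Aurkb, Bub1b, Kif20a, Kif2c and Cenpf lost the call in at least 1 such fit, most often without one of the corn oil livers (26 to 27 genes called without corn oil replicate 1, 2 or 3). With the arrays of lower top end left out 30 genes were called (median log2 change 1.19, the lone remaining ANIT liver being assumed to vary like the corn oil group), and 30 with that property as a batch term (1.37). Within the arrays of lower top end (2 ANIT, 1 corn oil) all 37 genes were higher, with a median difference of 1.56, and within the others (1 ANIT, 2 corn oil) all 37 were higher, with a median of 1.19. The methods' t-test called 26 of 37 at an unadjusted p below 0.01 (2.72% of all genes) and 2 after Benjamini-Hochberg adjustment (0.640%). ANIT replicate 2 was the highest of the ANIT livers in 35 of the 37 genes, against 28.1% of all genes.

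Fewer of them passed the test under MDA. Against ethanol, 8 of the 37 genes were called higher (Ccna2, Mki67, Aurkb, Ube2c, Kif11, Kifc1, Racgap1 and Prc1) and 0 lower, against 4.90% of all genes called higher, and the called changes ran from 1.55-fold for Kif11 to 3.81-fold for Mki67. The median log2 change was 0.53 (1.44-fold) against 0.00 over all genes, and all 37 changes lay above 0. In 20 of the 37 genes the MDA livers all exceeded the ethanol livers, which was so in 17.1% of all genes. With limma at an unadjusted p below 0.05, 25 genes were higher and 0 lower, and the share of all genes at this cut was not computed for MDA. The methods' t-test called 1 of 37 at an unadjusted p below 0.01 (3.58% of all genes) and 0 after adjustment (1.04%).

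The MDA count rested on single livers. MDA replicate 1 was the lowest of the MDA livers in 33 of the 37 genes, against 41.4% of all genes, and without it 27 genes were called. Without ethanol replicate 3 only Kif11 was called, 5 genes were called without ethanol replicate 2, 2 without MDA replicate 2 and 4 without MDA replicate 3. None of the 8 genes kept its call in every such fit.

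**Figure D3:**
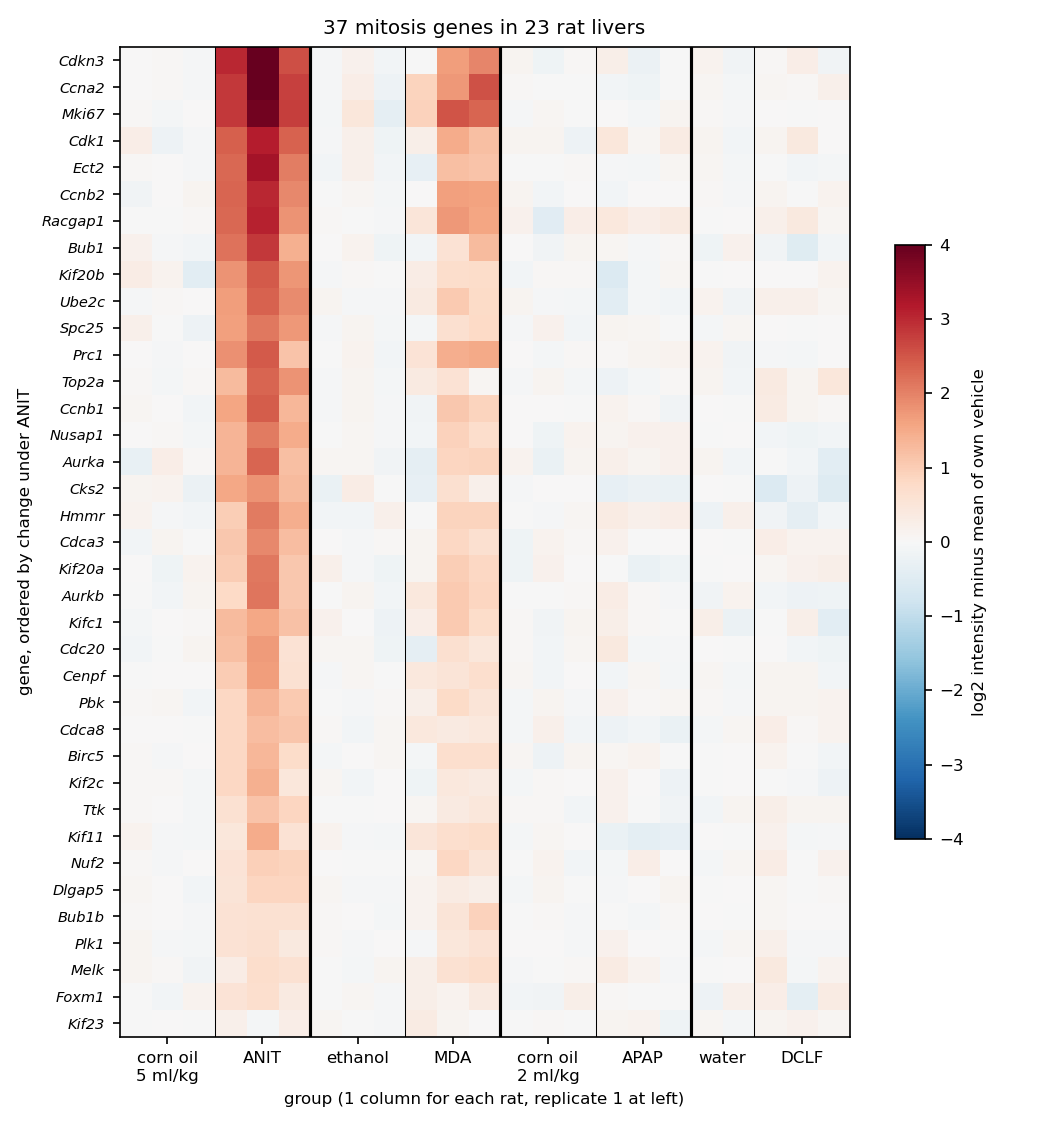
Log2 intensity minus the mean of the own vehicle group (colour) for the 37 measured mitosis genes (rows, ordered by the change under ANIT) in the 23 livers (columns, grouped with each vehicle to the left of its compound). Nearly all rows are red in the 3 ANIT livers, most are red in MDA replicates 2 and 3 and paler in MDA replicate 1, and APAP and DCLF livers stay near the colour of their vehicles.

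Values by liver are given as log2 intensities in the order of replicates 1 to 3, and parentheses give the log2 change against the own vehicle ± SE with the adjusted p of the limma test. Cyclins, CDK1 and their partners had the highest median change under ANIT: all 6 members rose under ANIT (median 2.52 on the log2 scale), and 1 of 6, Ccna2, rose under MDA (median 1.03). Ccna2 (Entrez 114494), the cyclin of S and G2 phase, read 7.88, 9.08 and 7.78 in the ANIT livers and 5.06, 5.12 and 5.0 in corn oil (3.19 ± 0.309, adjusted p = 0.0013). In the MDA livers it read 6.36, 7.20 and 8.02 against 5.42, 5.73 and 5.28 in ethanol (1.72 ± 0.355, adjusted p = 0.017). The groups did not overlap in either comparison. Ccnb1 (Entrez 25203), a B-type cyclin that activates CDK1, read 10.40, 11.25 and 10.17 against 8.93, 8.86 and 8.72 under ANIT (1.77 ± 0.249, adjusted p = 0.0052) and 8.89, 10.10 and 9.92 against 8.97, 9.12 and 8.96 under MDA (0.62 ± 0.275, adjusted p = 0.20). MDA replicate 1 lay below the ethanol livers for this gene. The companion cyclin Ccnb2 (Entrez 363088) read 10.84, 11.52 and 10.43 against 8.38, 8.52 and 8.62 (2.42 ± 0.244, adjusted p = 0.0015) and 9.14, 10.77 and 10.73 against 9.12, 9.22 and 9.05 (1.09 ± 0.382, adjusted p = 0.11). Again MDA replicates 2 and 3 were high and replicate 1 lay within the ethanol range.

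Cdk1 (Entrez 54237), the mitotic cyclin-dependent kinase, read 10.47, 11.24 and 10.45 in ANIT livers and 8.36, 7.88 and 8.04 in corn oil (2.63 ± 0.224, adjusted p = 0.00081). Its MDA values of 8.95, 10.18 and 9.90 all exceeded the ethanol values of 8.67, 8.91 and 8.53, but the change did not pass the test (0.98 ± 0.282, adjusted p = 0.058). Cdkn3 (Entrez 289993), a phosphatase that acts on CDK1 and CDK2, showed the largest change of any member under ANIT, with 10.41, 11.42 and 9.97 against 7.40, 7.43 and 7.33 (3.21 ± 0.316, adjusted p = 0.0013). Under MDA it read 8.31, 10.01 and 10.29 against 8.27, 8.49 and 8.23 (1.21 ± 0.440, adjusted p = 0.12), and MDA replicate 1 lay inside the ethanol range. Cks2 (Entrez 498709), a small CDK-binding subunit, read 11.56, 11.83 and 11.29 against 10.12, 10.15 and 9.79 under ANIT (1.54 ± 0.155, adjusted p = 0.0014) and did not pass the test under MDA (0.17 ± 0.240, adjusted p = 0.74).

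Foxm1 (Entrez 58921), the transcription factor that activates many of these genes in G2, did not pass both thresholds under any compound with all livers kept. Its dimmer probe set gave -0.03 ± 0.075 (adjusted p = 0.87) under ANIT. By limma Foxm1 was called under ANIT without corn oil replicate 3 (0.59, adjusted p = 0.045) and without ANIT replicate 3 (0.62, adjusted p = 0.0095). It read 9.30, 9.42 and 9.11 in ANIT livers against 8.73, 8.63 and 8.87 in corn oil (0.53 ± 0.106, adjusted p = 0.020), a difference past the p threshold at 1.45-fold, under the fold threshold. In the MDA livers it read 9.14, 9.06 and 9.28 against 8.89, 9.01 and 8.86 (0.24 ± 0.0944, adjusted p = 0.15). The groups did not overlap in either comparison.

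Both measured chromosome structure genes rose under ANIT. Mki67 (Entrez 291234), which coats mitotic chromosomes and is the usual marker of proliferating cells, read 9.38, 10.39 and 9.29 against 6.58, 6.47 and 6.56 (3.15 ± 0.264, adjusted p = 0.00075). Under MDA it read 7.81, 9.41 and 9.22 against 6.79, 7.32 and 6.53 (1.93 ± 0.394, adjusted p = 0.016). All treated livers were higher than their vehicles, and MDA replicate 1 was nearest to them. Top2a (Entrez 360243), the topoisomerase that untangles sister chromatids, read 9.67, 10.72 and 10.19 in ANIT livers against 8.44, 8.32 and 8.45 (1.79 ± 0.231, adjusted p = 0.0036) and 9.25, 9.46 and 8.94 in MDA livers against 8.84, 8.98 and 8.81 (0.34 ± 0.134, adjusted p = 0.15). For Top2a it was MDA replicate 3 that overlapped the ethanol livers, unlike the cyclins.

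**Figure D4:**
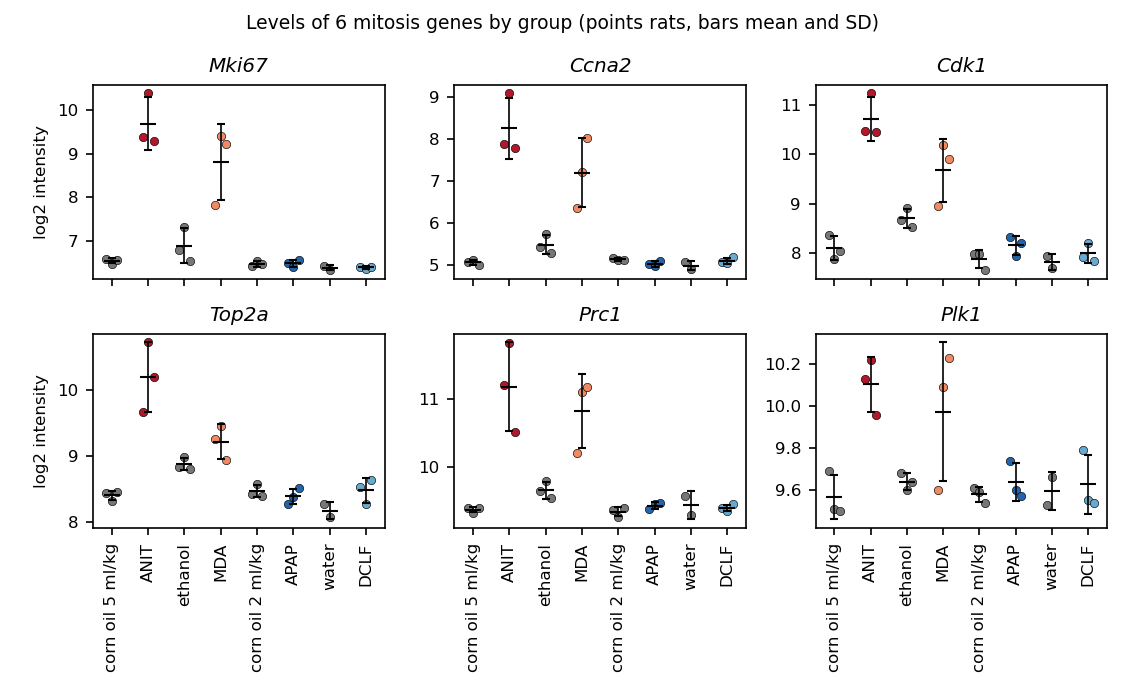
Log2 intensity (vertical axes) of 6 mitosis genes in each liver (points) by group (horizontal axes), with mean and SD as bars. Mki67, Ccna2, Cdk1, Top2a and Prc1 are separated from their vehicle in ANIT livers by more than 1 log2 unit. Plk1 changes by 0.53 under ANIT and by 0.33 under MDA.

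Of the 4 measured mitotic kinases outside the passenger complex, 2 were called higher under ANIT (Aurka and Pbk) and 0 under MDA. Aurka (Entrez 261730), the kinase of the spindle poles, read 9.22, 10.17 and 9.05 in ANIT livers and 7.55, 8.11 and 7.91 in corn oil (1.62 ± 0.285, adjusted p = 0.012). In MDA livers it read 7.94, 9.15 and 9.17 against 8.38, 8.36 and 8.14 (0.46 ± 0.298, adjusted p = 0.41). The ANIT groups were apart, while MDA replicate 1 lay below every ethanol liver. Plk1 (Entrez 25515), the Polo-like kinase that promotes mitotic entry, read 10.13, 10.22 and 9.96 against 9.69, 9.51 and 9.50 under ANIT, a 1.45-fold difference below the fold threshold (0.53 ± 0.0976, adjusted p = 0.014). Under MDA the values were 9.60, 10.09 and 10.23 against 9.68, 9.60 and 9.64 (0.33 ± 0.154, adjusted p = 0.22). Melk, a kinase of proliferating cells, stood at 1.45-fold under ANIT (0.53 ± 0.123, adjusted p = 0.035) and 1.43-fold under MDA (0.52 ± 0.131, adjusted p = 0.037), so that in both it passed the p threshold and missed the fold threshold.

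The chromosomal passenger complex, which corrects faulty attachments and then marks the cleavage plane, had 3 listed members, of which 3 rose under ANIT and 1, Aurkb, passed both thresholds under MDA. Aurkb (Entrez 114592), its kinase, read 8.66, 10.01 and 8.96 in ANIT livers against 7.85, 7.77 and 7.98 (1.34 ± 0.305, adjusted p = 0.032), and 8.45, 9.06 and 8.90 in MDA livers against 8.02, 8.15 and 7.91 (0.78 ± 0.157, adjusted p = 0.015). No group overlapped its vehicle. Birc5 (Entrez 64041), which encodes the subunit survivin, read 10.07, 10.59 and 9.99 against 9.31, 9.20 and 9.26 (0.96 ± 0.154, adjusted p = 0.0089) and 9.38, 10.14 and 10.13 against 9.38, 9.49 and 9.54 (0.41 ± 0.195, adjusted p = 0.23). Cdca8 (Entrez 500545), which encodes the subunit borealin, read 9.76, 10.15 and 10.04 against 8.95, 8.93 and 8.90 (1.06 ± 0.109, adjusted p = 0.0016) and 9.65, 9.60 and 9.65 against 9.28, 9.12 and 9.32 (0.40 ± 0.0877, adjusted p = 0.022). MDA replicate 1 was not the low liver for Cdca8, whereas for Birc5 it fell on the edge of the ethanol range.

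All 6 measured checkpoint and kinetochore genes rose under ANIT, by 1.52-fold to 4.43-fold, and 0 of 6 passed both thresholds under MDA. Bub1 (Entrez 296137), a checkpoint kinase at the kinetochore, read 8.89, 9.54 and 8.13 in ANIT livers against 6.87, 6.66 and 6.58 (2.15 ± 0.307, adjusted p = 0.0055), and 7.08, 7.74 and 8.45 in MDA livers against 7.19, 7.32 and 7.02 (0.58 ± 0.292, adjusted p = 0.27). The spread among the ANIT livers exceeded 1 log2 unit, with replicate 3 lowest. Bub1b (Entrez 171576), which encodes the checkpoint protein BubR1, had the smallest called change, 8.88, 8.92 and 8.93 against 8.36, 8.31 and 8.26 (0.60 ± 0.0711, adjusted p = 0.0026). Under MDA it read 8.56, 8.93 and 9.32 against 8.45, 8.44 and 8.35 (0.52 ± 0.171, adjusted p = 0.090). Spc25 (Entrez 295661), a subunit of the NDC80 complex that holds microtubules, read 9.81, 10.29 and 9.90 against 8.38, 8.16 and 7.96 under ANIT (1.83 ± 0.152, adjusted p = 0.00072) and 8.45, 9.15 and 9.31 against 8.48, 8.61 and 8.45 under MDA (0.46 ± 0.202, adjusted p = 0.20). All 3 ANIT livers lay above corn oil, whereas MDA replicate 1 lay on the edge of the ethanol range. Ttk, Nuf2 and Cenpf, a checkpoint kinase, another NDC80 complex subunit and a kinetochore protein, rose 1.83-fold, 1.73-fold and 2.15-fold under ANIT.

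Of the 4 measured mitotic kinesins, 3 rose under ANIT and 2 under MDA. Kif11 (Entrez 171304), the motor that pushes the spindle poles apart, read 9.13, 10.16 and 9.24 in ANIT livers against 8.81, 8.62 and 8.59 (0.83 ± 0.250, adjusted p = 0.081), so that it was 1.78-fold higher without passing the adjusted threshold. In MDA livers it read 9.15, 9.32 and 9.38 against 8.78, 8.61 and 8.57 and was called (0.63 ± 0.100, adjusted p = 0.0054). The ANIT livers differed from one another by about 1 log2 unit, while the MDA livers lay close together, and Kif11 was the 1 member called under MDA and not under ANIT. Its dimmer probe set gave 0.42 ± 0.0756 (adjusted p = 0.013) under ANIT and -0.10 ± 0.0841 (adjusted p = 0.54) under MDA. With the mean of its probe sets the MDA call was lost (0.27, adjusted p = 0.063) and an ANIT call gained (0.63, adjusted p = 0.030), and with all 23 samples in 1 limma fit it was called under ANIT too (adjusted p = 0.0018). Kif20b (Entrez 309523), a kinesin of late mitosis, read 8.02, 8.70 and 8.01 against 6.54, 6.36 and 5.80 under ANIT (2.01 ± 0.239, adjusted p = 0.0027) and 6.89, 7.28 and 7.33 against 6.55, 6.63 and 6.57 under MDA, where 1.499-fold fell just short of the fold threshold (0.58 ± 0.123, adjusted p = 0.018). Kifc1, a minus-end motor that focuses spindle poles, rose 2.52-fold under ANIT (1.33 ± 0.109, adjusted p = 0.00071) and 1.60-fold under MDA (0.68 ± 0.188, adjusted p = 0.050), the latter lost under quantile normalisation (adjusted p = 0.057) and median centring (adjusted p = 0.050). Kif2c, a microtubule depolymeriser, rose 1.86-fold under ANIT.

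The 3 measured spindle assembly genes, Nusap1, Hmmr and Dlgap5, rose under ANIT (3.11-fold, 2.82-fold and 1.67-fold), and under MDA 0 of 3 were called (median log2 change 0.51). Of the central spindle and cytokinesis genes, 4 of 5 rose under ANIT and 2 of 5 under MDA. Prc1 (Entrez 308761), which bundles the microtubules of the central spindle, read 11.21, 11.82 and 10.52 in ANIT livers against 9.39, 9.33 and 9.40 (1.81 ± 0.280, adjusted p = 0.0075), and 10.20, 11.10 and 11.17 in MDA livers against 9.65, 9.79 and 9.54 (1.16 ± 0.236, adjusted p = 0.016). Racgap1 (Entrez 315298), which with KIF23 forms centralspindlin, read 10.27, 11.06 and 9.76 against 7.96, 7.95 and 8.02 (2.39 ± 0.281, adjusted p = 0.0025) and 8.85, 10.10 and 9.95 against 8.40, 8.35 and 8.32 (1.28 ± 0.286, adjusted p = 0.022). Neither gene overlapped its vehicle in either comparison. Ect2 (Entrez 361921), the exchange factor that activates RhoA for cleavage, read 9.29, 10.31 and 9.04 against 7.04, 7.0 and 6.95 under ANIT (2.55 ± 0.289, adjusted p = 0.0023) and 7.42, 8.97 and 8.89 against 7.64, 7.97 and 7.66 under MDA (0.67 ± 0.366, adjusted p = 0.31). Its MDA livers were split, with replicate 1 below and replicates 2 and 3 well above ethanol. Kif20a (Entrez 361308), a motor of the central spindle, read 10.06, 11.17 and 10.14 against 9.06, 8.89 and 9.19 (1.41 ± 0.273, adjusted p = 0.018) and 9.45, 10.31 and 10.17 against 9.54, 9.29 and 9.15 (0.65 ± 0.216, adjusted p = 0.093). It was separated from its vehicle under ANIT and overlapped it under MDA.

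All 3 measured genes of the mitotic ubiquitin ligase and exit group rose under ANIT, and 1, Ube2c, rose under MDA. Cdc20 (Entrez 64515), an activator of the anaphase-promoting complex, read 9.62, 10.13 and 8.98 in ANIT livers against 8.30, 8.41 and 8.54 (1.16 ± 0.253, adjusted p = 0.028), and 8.35, 9.34 and 9.16 in MDA livers against 8.79, 8.77 and 8.53 (0.25 ± 0.234, adjusted p = 0.59). Ube2c (Entrez 296368), its ubiquitin-conjugating enzyme, read 10.21, 10.90 and 10.42 against 8.48, 8.57 and 8.55 (1.98 ± 0.163, adjusted p = 0.00071) and 9.29, 9.97 and 9.67 against 9.02, 8.86 and 8.88 (0.72 ± 0.160, adjusted p = 0.022). Cdc20 was split among the MDA livers, replicate 1 lying below ethanol, whereas all MDA livers exceeded ethanol for Ube2c. Cdca3, which triggers loss of the mitotic-entry inhibitor WEE1, rose 2.65-fold under ANIT.

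The chosen probe set did not speak for every other probe set of its gene. Of the 37 members, 11 had several probe sets; under ANIT all of them were called in 4 genes, some in 5 and none in 2. Kif23, the centralspindlin motor, is the clearest case: its brighter probe set overlapped its vehicle in both comparisons (log2 change 0.13 ± 0.102, adjusted p = 0.52 under ANIT and 0.15 ± 0.104, adjusted p = 0.46 under MDA), whereas the dimmer probe set gave 1.32 ± 0.187 (SE, adjusted p = 0.0054) under ANIT and 0.94 ± 0.0848 (adjusted p = 0.00059) under MDA by limma. For Cdc20 the brightest of 5 probe sets changed by 1.16 under ANIT and the other 4 by 0.02 to 0.47. Under ANIT the dimmer probe sets of Ttk (0.06 ± 0.0862, adjusted p = 0.78), Kif2c (0.40 ± 0.130, adjusted p = 0.11) and Hmmr (0.88 ± 0.232, adjusted p = 0.054) were not called by limma. With the mean of all probe sets of a gene, Cdc20 and Ttk lost the ANIT call (0.46 for each) and Kif23 gained one (0.73). Racgap1 was called under MDA by its brighter probe set. The dimmer one gave 0.36 ± 0.189 (adjusted p = 0.28) under MDA and 1.04 ± 0.177 (adjusted p = 0.011) under ANIT by limma.

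The ANIT and MDA effects were then compared with each other in 1 limma fit over the 4 groups. The change was larger under ANIT in 36 of the 37 genes. The median difference over the 37 was 0.87 log2 units, against -0.007 over all genes. The difference itself was called for 5 genes, Top2a (1.45 ± 0.291, adjusted p = 0.035), Kif20b (1.42 ± 0.294, adjusted p = 0.040), Spc25 (1.37 ± 0.279, adjusted p = 0.037), Ube2c (1.26 ± 0.249, adjusted p = 0.032) and Cdca8 (0.66 ± 0.139, adjusted p = 0.042), and for 0 in the opposite direction, against 0.710% of all genes called higher under ANIT. At an unadjusted p below 0.05 in limma, 25 genes differed in that direction and 0 in the other. The share of all genes at this cut was not computed. The dimmer probe set of Top2a changed by 0.78 under ANIT and 0.41 under MDA. With the mean of its probe sets Top2a lost the call for the difference (0.91, adjusted p = 0.075 by limma). No gene was called for this difference in 5 of the fits that left out 1 liver: corn oil replicate 2 or 3, or ethanol replicate 1, 2 or 3. With the 3 arrays of lower top end left out 1 gene was called. Study, vehicle and compound changed together between these comparisons and cannot be told apart.

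The genes called under MDA were mostly among those called under ANIT. Of the 8 genes called under MDA, 7 (87.5%) were also called under ANIT, and they were 21.9% of the 32 called there. Because 32 of all 37 genes were called under ANIT, most of any 8 members would be among them. The overlap in calls is therefore only a description. Across the 37 genes the ANIT and MDA changes had a Pearson correlation of 0.795 and a Spearman correlation of 0.702; the comparisons share no liver, but the genes are not independent and no p-value is given. The order within the cyclin group was much alike, with Ccna2 and Cdkn3 above Cdk1 and Ccnb2 and Cks2 last in both.

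**Figure D5:**
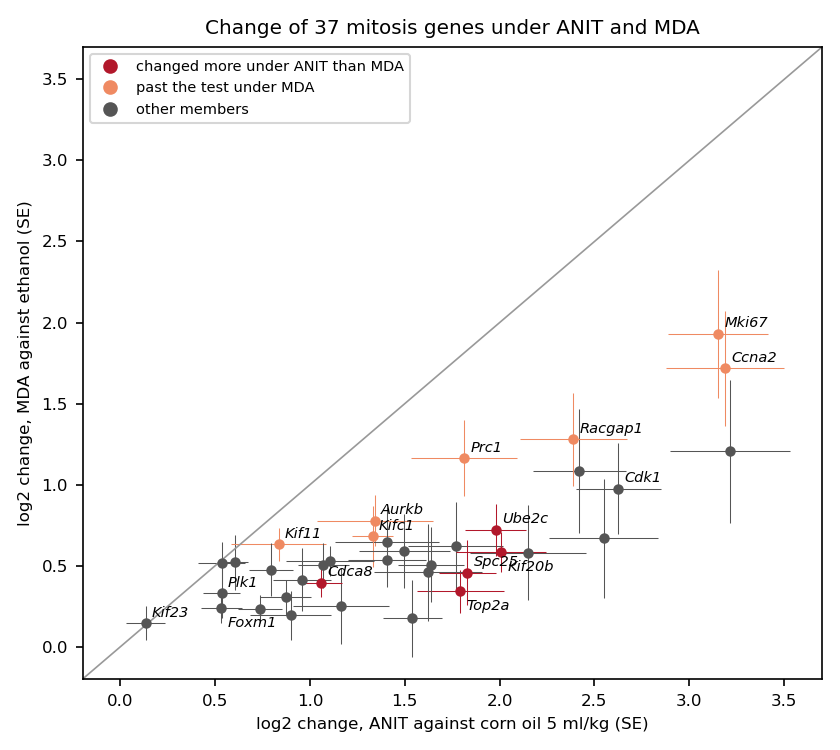
Log2 change under ANIT against corn oil (horizontal axis) and under MDA against ethanol (vertical axis) for the 37 measured mitosis genes, with standard errors as bars and equal change as the diagonal line. All but 1 gene lie below the line, the 5 genes in red differed between the compounds by the test, and the 8 genes called under MDA are Ube2c among those and the 7 in orange.

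No mitosis gene passed the test under APAP. With limma 0 of the 37 genes were called in either direction, against 0.239% of all genes called higher, and at an unadjusted p below 0.05 there was 1 higher and 2 lower (11.6% of all genes in either direction). The methods' t-test called 0 at an unadjusted p below 0.01 (0.352% of all genes). The median log2 change was 0.02, with a range of -0.33 to 0.35 and a median standard error of 0.096. In 1 gene the APAP livers all exceeded corn oil (10.4% of all genes) and in 5 they all lay below it (7.09%). Mki67 read 6.48, 6.38 and 6.56 in APAP livers against 6.41, 6.53 and 6.45, Ccna2 read 5.02, 4.96 and 5.10 against 5.17, 5.11 and 5.11, and Cdk1 read 8.31, 7.94 and 8.20 against 7.97, 7.97 and 7.65. Cks2 read 9.79, 9.89 and 9.85 against 10.08, 10.14 and 10.15 and Kif11 8.44, 8.33 and 8.37 against 8.63, 8.78 and 8.72, both without overlap and without passing the test.

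DCLF likewise gave 0 called genes of 37 with limma, where 0% of all genes were called higher, and at an unadjusted p below 0.05 there was 1 higher and 1 lower (11.8% of all genes in either direction). The methods' t-test called 0 at an unadjusted p below 0.01 (0.00703% of all genes). The median log2 change was 0.04, with a range of -0.42 to 0.30. All DCLF livers exceeded both water livers in 7 genes (10% of all genes) and lay below them in 2 (20.8%). Mki67 read 6.40, 6.35 and 6.40 in DCLF livers against 6.41 and 6.33 in water, Ccna2 read 5.07, 5.04 and 5.18 against 5.06 and 4.90, and Cks2 read 9.64, 9.96 and 9.65 against 10.19 and 10.16. Mki67 and Ccna2 overlapped, whereas Cks2 was lower in every DCLF liver without passing the test.

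The vehicles were not alike in these genes. In 18 of the 37 genes all 3 ethanol livers exceeded all 8 other vehicle livers, which held for 1.63% of all genes, and the median difference was 0.26 log2 units against 0.01 over all genes. Cdkn3 averaged 8.33 in ethanol and 7.30 in the other vehicles, Cdk1 8.70 and 7.94, Ect2 7.76 and 7.09, and Ccnb2 9.13 and 8.47. The ethanol range of Cdkn3 was 8.23 to 8.49 and the range over the other vehicles 7.10 to 7.43, so the groups were apart by more than their spread. Plk1 (9.64 and 9.58), Kif11 (8.65 and 8.65) and Kif23 (8.90 and 8.91) had ethanol means within 0.1 log2 units of the mean over the other vehicles. The ethanol livers formed 1 study of their own with MDA, so vehicle and study cannot be told apart, and no test is given.

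Other genes of the cell cycle were read from fixed lists, beside 3.84% of all genes called higher under ANIT and 4.90% under MDA. For the counts at an unadjusted p below 0.05 no such share was computed under these compounds, so they stand alone. Of 30 measured DNA replication genes, 14 rose and 0 fell under ANIT, led by the helicase subunit Mcm6 (1.91 ± 0.231), the methylation maintenance factor Uhrf1 (1.62 ± 0.114) and Mcm4 (1.61 ± 0.101), and 4 rose and 0 fell under MDA (Mcm6 1.19 ± 0.228, Uhrf1 1.10 ± 0.130 and Mcm2 0.72 ± 0.094 among them). Of 27 further kinetochore and checkpoint genes, 9 rose and 0 fell under ANIT, led by Spc24 (1.33 ± 0.178), Mad2l1 (1.31 ± 0.137) and Cenpk (1.04 ± 0.233). Under MDA 0 of them were called, and 14 had an unadjusted p below 0.05. Of 16 condensin and cohesin genes, 4 rose and 0 fell under ANIT. They were led by the condensin subunits Smc2 (2.27 ± 0.295) and Ncapd2 (1.11 ± 0.109) and by Espl1 (0.76 ± 0.156), which encodes separase. Under MDA 0 of the 16 were called (7 at an unadjusted p below 0.05). Of 15 subunits of the anaphase-promoting complex 0 were called under either compound (2 and 3 at an unadjusted p below 0.05). These are log2 changes ± SE from the same limma fits.

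Upstream regulators were read in the same way; of all genes, 3.38% were called lower under ANIT and 4.23% under MDA, beside the 3.84% and 4.90% called higher. Of 16 G1 cyclins, kinases and inhibitors, Myc (1.20 ± 0.228) and Ccnd1 (0.81 ± 0.151) rose and Rb1, which restrains entry into S phase, fell by 1.09 ± 0.167 under ANIT, while under MDA Myc (0.86 ± 0.235) and Ccnd2 (0.84 ± 0.182) rose and Rb1 fell by 0.89 ± 0.210. Of 16 genes of the E2F and DREAM group, the pocket protein Rbl1 (1.13 ± 0.162) and Lin9 (0.61 ± 0.0749) rose under ANIT and Rbl1 alone (0.68 ± 0.129) under MDA. Of 10 measured genes of CDK1 activation, the inhibitory kinases Wee1 (0.99 ± 0.0883) and Pkmyt1 (0.78 ± 0.0893) and the phosphatase inhibitor Arpp19 (0.78 ± 0.0777) rose under ANIT, and under MDA the phosphatase Cdc25b fell by 0.70 ± 0.189. Of 29 growth factors and receptors, 2 rose and 3 fell under ANIT and 2 rose and 4 fell under MDA. Pdgfa (1.33 ± 0.173) and Fgf1 (1.20 ± 0.134) were those that rose under ANIT, and Egf, Egfr and Kdr fell by 1.98 ± 0.0781, 0.96 ± 0.145 and 0.73 ± 0.131. Under MDA Tgfb1 (1.01 ± 0.0953) and Pdgfa (0.83 ± 0.119) rose, and Egf, Egfr and Fgfr4 fell most, by 1.64 ± 0.167, 0.69 ± 0.106 and 0.66 ± 0.165. Over all these lists, 0 of 159 genes were called by limma under APAP and under DCLF, where 18 and 15 had an unadjusted p below 0.05, against the 11.6% and 11.8% of all genes given above.

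Markers of several liver cell types were called beside the mitosis genes, where 3.84% of all genes were called higher and 3.38% lower under ANIT and 4.90% and 4.23% under MDA. In whole liver more cells of a type and more RNA per cell cannot be told apart. Cholangiocyte and ductular markers were higher in 3 of 12 under ANIT (Epcam 2.16 ± 0.156) and in 4 of 12 under MDA (Sox4 1.49 ± 0.167 and Epcam 1.10 ± 0.140), and 0 were lower. Their summed level, as log2, was 13.04 to 13.55 in ANIT livers against 12.54 to 12.60 in corn oil and 13.12 to 13.44 in MDA livers against 12.67 to 12.78 in ethanol. Macrophage and monocyte markers were higher in 3 of 15 and lower in 1 under ANIT (sum 14.99 to 15.30 against 14.85 to 15.01), and higher in 11 of 15 under MDA (15.45 to 15.69 against 14.49 to 14.73). Stellate cell and fibroblast markers were higher in 6 of 14 and lower in 1 under ANIT (14.52 to 14.81 against 14.20 to 14.42), and higher in 7 and lower in 2 under MDA (14.53 to 14.65 against 13.73 to 14.20).

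Hepatocyte markers were higher in 1 of 13 under ANIT (sum 17.83 to 18.81 against 17.84 to 18.80, each with low values on the arrays of lower top end) and lower in 4 of 13 under MDA (18.35 to 18.57 against 18.75 to 18.79). Lymphocyte markers were lower in 1 of 14 under ANIT (12.57 to 12.64 against 12.66 to 12.90) and higher in 3 of 14 under MDA (12.98 to 13.15 against 12.65 to 12.78). Endothelial markers were lower in 2 of 9 under ANIT (13.85 to 14.00 against 14.18 to 14.26) and 0 of 9 were called under MDA (13.67 to 13.81 against 13.52 to 13.89). Erythroid markers were lower in 2 of 8 under ANIT (13.83 to 13.92 against 14.33 to 14.71) and under MDA (14.04 to 14.30 against 14.41 to 14.84). Of 7 neutrophil markers, 5 of them in the dimmest 25% of probe sets, 0 were called under either compound. Their sum was 10.58 to 10.78 in ANIT livers against 10.43 to 10.57 in corn oil. In MDA livers it was 10.60 to 10.73 against 10.41 to 10.57 in ethanol. MDA replicate 1, the low liver for the mitosis genes, had cholangiocyte, macrophage and stellate cell sums of 13.14, 15.45 and 14.53, all above the ethanol livers. The part of these cell types in the mitosis gene changes was not tested.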

How the data were processed

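The authors hybridised liver RNA to Affymetrix Rat Genome 230 2.0 arrays and normalised them by RMA, and the deposited values are log2 intensities, 1 per probe set and array (31099 probe sets, of which 57 control probe sets were left out here). The 23 samples were grouped by the compound or vehicle in their titles. Probe sets were named from the platform annotation and symbols were updated through RefSeq gene records: 20826 carried 1 gene, 436 several and 9780 had no name here, and 20758 of the first were found in those records. Each compound was compared with its own vehicle by limma 3.58.1 (R 4.3.3) with only those 2 groups in the fit, and the ANIT and MDA effects were compared over 4 groups. P-values were adjusted by Benjamini-Hochberg over 31042 probe sets, and a gene was called at an adjusted p below 0.05 and a fold change above 1.5. The fit was tested on simulated data. No depth exists for arrays, so the number of arrays limits the precision, and p-values measure the spread between these rats. The methods' t-test used an unadjusted p below 0.01 and the same fold change.

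The mitosis genes, the other gene lists and the genes whose values are given by liver were chosen with earlier results of these data known. Values in every liver are given for the CDK1 and cyclin genes, the best-known kinases, checkpoint, kinesin and cytokinesis genes and any member called for the difference between ANIT and MDA; the others are given by counts and ranges, and of the other lists up to 3 called genes each way. Alternatives were quantile normalisation, median centring, leaving out the dimmest 25% of probe sets (mean log2 under 7.80), all 23 samples in 1 fit, a trended robust eBayes, the mean of all probe sets of a gene and leaving out each rat. The 3 arrays with a lower top end were left out, or given a batch term, as alternatives chosen after seeing the data.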

Additional observations from a re-analysis of the deposited data

Results flagged for a closer look

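The difference between the ANIT effect and the MDA effect was itself past the test for 5 mitosis genes, each with the larger change under ANIT: Top2a by 1.45 log2 units, Kif20b by 1.42, Spc25 by 1.37, Ube2c by 1.26 and Cdca8 by 0.66. In Top2a, Kif20b, Spc25, Ube2c and Cdca8 all 3 ANIT livers exceeded all 3 corn oil livers, as in 36 of the 37 mitosis genes and 14.1% of all genes. The MDA livers also all exceeded the ethanol livers in Kif20b, Ube2c and Cdca8, but not in Top2a or Spc25. In Top2a, Spc25 and Ube2c, but not in Kif20b or Cdca8, all 3 ethanol livers exceeded all 8 other vehicle livers. That held for 18 of the 37 mitosis genes and 1.63% of all genes. Study, vehicle and compound changed together between the ANIT and MDA comparisons and cannot be told apart. None of the 5 genes kept the call for the difference in every fit that left out 1 liver. Top2a also lost it with the mean of its probe sets (0.91, adjusted p = 0.075 by limma).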

How the results depend on the processing

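No paired analysis was possible because the treated and vehicle samples were different rats and numbers were assigned to rats here in record order. The count of genes called under ANIT was 32 and ranged from 26 to 34 when 1 liver was left out, and the methods' t-test after adjustment gave 2. Under MDA the count was 8, ranged from 1 (without ethanol replicate 3) to 27 (without MDA replicate 1), and was 1 by the methods' t-test and 0 after its adjustment. The count for the difference between ANIT and MDA was 5, ranged from 0 to 6 when 1 liver was left out, and was 11 with all 23 samples in 1 fit and 1 without the 3 arrays of lower top end. The APAP median of 0.024 ranged from -0.0075 (without APAP replicate 1) to 0.076 (without APAP replicate 3). The counts for APAP and DCLF were 0 under every alternative run. The remaining alternatives left each count within 1.5 times its value and each median within 1 SD of the livers, and no called change of a mitosis gene under ANIT, under MDA or in their difference changed sign. Cks2, not called under MDA, had a change of 0.17 that ranged from -0.063 (without MDA replicate 2) to 0.42 (without MDA replicate 1). The causes of these shifts were not tested. Leaving out the dimmest 25% of probe sets kept 31 of the 37 genes, of which 26 were called under ANIT and 7 under MDA. The number of rats, 2 or 3 in a group, limits the precision.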
